A study of Rattus norvegicus with 10 samples.

Results

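*Il1rn*, the gene of the interleukin 1 receptor antagonist, and *Cxcl3*, the gene of a CXC chemokine, were 2 of the 32622 Ensembl genes counted in cultured myoblasts from rat soleus muscle. They were chosen because they had been among the genes that changed most in earlier results on these data, *Il1rn* in the HS1 cultures and *Cxcl3* in the HS3 cultures, and because the study had called *Il1rn* at every time point and *Cxcl3* in HS3 and HS7. Their levels in those comparisons are therefore given as a description, without a test. The identifiers ENSRNOG00000005871 (*Il1rn*) and ENSRNOG00000028043 (*Cxcl3*) are those the study pairs with the symbols.

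The cells came from 3-month-old male Wistar rats that were kept in cages (Control, day 0) or in hindlimb suspension (HS) for 1, 3, 7 or 14 days (HS1, HS3, HS7 and HS14), a model in which the soleus muscle bears no weight. The study describes no genetic change and no drug as a treatment of any group. Muscles of control and unloaded rats were taken under isoflurane anesthesia, and the medium held penicillin-streptomycin. In all 5 groups the muscle was digested with collagenase, the cells were grown in serum-rich medium on Geltrex, fibro-adipogenic progenitors were removed by pre-plating on uncoated dishes, and RNA was taken after a further day in culture, so the levels describe cells some days away from the unloaded muscle. Each group had 2 libraries, and the sources used here do not say whether these came from different rats or cultures, so that p-values measure the spread between these libraries, which may be technical.

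The interleukin 1 receptor antagonist binds the same receptor as interleukin 1α and interleukin 1β without starting a signal, and so competes with them. It is made in a secreted and in intracellular forms from different first exons, and it is best known from macrophages, neutrophils, epithelia and activated fibroblasts. CXCL3 belongs to the chemokines that attract neutrophils through the receptor CXCR2, and its gene is one that interleukin 1 and NF-κB switch on in stromal cells and macrophages. In the RefSeq annotation of the rat assembly GRCr8, *Il1rn* on chromosome 3 follows *Il36g*, *Il36a*, *Il36b*, *Il36rn* and *Il1f10*, other ligands and antagonists of the family. *Cxcl3* on chromosome 14 lies among *Cxcl2*, *Cxcl1*, *Pf4*, *Ppbp* and *Cxcl6*, a group of related chemokine genes, and its count is uncertain where reads of *Cxcl1* or *Cxcl2* could be assigned to it.

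The promoter of *Il1rn* is shown because this gene had the wider range of levels of the pair. RefSeq lists 3 transcripts for it, and the window below is the 250 bases before the start given in the promoter table for the gene (GRCr8, chr3:27520072-27520321, plus strand). The counts add up all transcripts of the gene, so they do not tell which start was used. Capitals mark the only match to the motifs searched on both strands.
Il1rn promoter: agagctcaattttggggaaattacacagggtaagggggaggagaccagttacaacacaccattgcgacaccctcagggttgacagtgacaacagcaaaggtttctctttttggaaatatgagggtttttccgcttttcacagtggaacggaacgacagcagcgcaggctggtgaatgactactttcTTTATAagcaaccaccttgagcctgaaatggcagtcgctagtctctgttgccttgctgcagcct
The match is TATAAA, the TATA box letters, read on the opposite strand 64 bases before the start, and 12.9% of the 33469 promoter windows hold it on either strand. The window held no match to GGGA, any 2 bases and TTCC for NF-κB (1.08% of promoters), TGANTCA for AP-1 (6.34%), TTGCNNAA for C/EBP (9.22%), GAGGAAGT for PU.1 (2.04%) or GGGCGG for the GC box (30.5%). These motifs were chosen with the window known, and a match or its absence describes letters and not the binding of a factor.

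The libraries held between 20200972 and 28175200 counts, and 3 counts, the smallest level taken as detectable, corresponded to between 0.107 and 0.149 CPM, the usual unit of counts scaled to the library's total. Levels are CPM scaled by TMM normalization factors, which correct for a few genes taking a large share of a library. Among counts from 1 to 20, between 69.4% and 72.0% were even numbers in each library, and how read pairs were counted is not given in the sources used here. If both mates of a pair were counted, the counts and the floor of 3 stand for fewer fragments than they number, which was not tested. Of the 7 listed markers of myogenic cells, *Myog* alone had a symbol here, and it was detected in all libraries. It was lowest in HS1 (107 to 116 CPM) and highest in HS7, where the libraries stood apart at 670 and 883 CPM. The study had called *Myog* in HS7, so its high level there follows from that choice.

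*Il1rn* was low after 1 day of suspension, high after 3 days and low again after 7 and 14 days. Control stood at 39.6 and 40.2 CPM, HS1 at 2.12 and 2.31 CPM and HS3 at 103 and 127 CPM. The HS7 libraries had 10.4 and 7.18 CPM, and the HS14 libraries 2.83 and 2.74 CPM. No library of any group overlapped with those of another group, and the order of the means was HS3, Control, HS7, HS14 and HS1. The neighbours HS14 and HS1 lay closest, with HS14 above HS1 by a log2 fold change of 0.31 (standard error 0.28), a difference close to its error. The means of HS3 and HS1 differed 51.9-fold, and on the log2 CPM scale 3 of 13691 expressed genes had a wider range of group means. In counts, the HS1 libraries held 52 and 53 reads of the gene, above the floor of 3, and the HS3 libraries 2021 and 3204.

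Relative to Control, the log2 fold change of *Il1rn* was -4.17 (standard error 0.13) in HS1, 1.52 (standard error 0.10) in HS3, -2.18 (standard error 0.14) in HS7 and -3.84 (standard error 0.13) in HS14. These 4 changes share the control libraries and belong to the comparisons the gene was chosen from. In HS1, 6 of the 13013 genes tested fell further, and in HS14 17 of 13160 did. In HS3, 165 of 13133 genes rose further, and in HS7 105 of 13164 fell further, so the rise in HS3 stood less far out among all genes than the falls. Over the fits that each lacked a single library, the change lay between -4.23 and -4.11 in HS1, between 1.37 and 1.67 in HS3, between -2.47 and -1.94 in HS7 and between -3.87 and -3.82 in HS14. In bulk RNA, fewer cells that express a gene and less RNA of it per cell cannot be told apart, and this holds for every level given here.

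*Cxcl3* was highest in HS1, where *Il1rn* was lowest, and lowest in HS3, where *Il1rn* was highest. In HS7 both genes were below Control, and in HS14 *Cxcl3* was near its control level while *Il1rn* was low. The control libraries had 15.4 and 16.1 CPM of *Cxcl3*, the HS1 libraries 22.5 and 22.0 CPM, and the HS3 libraries 3.05 and 2.46 CPM. The HS7 libraries had 2.92 and 5.64 CPM, and the HS14 libraries 17.4 and 16.1 CPM. The HS1 libraries were above all others, the libraries of HS3 and HS7 were below all others, and HS3 and HS7 overlapped with each other. HS14 and Control were close neighbours, with means that differed 1.06-fold. The group means ranged 8.07-fold from HS1 to HS3, and 2.73% of the 13691 expressed genes had a wider range on the log2 CPM scale.

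Against Control, *Cxcl3* had a log2 fold change of -2.53 (standard error 0.18) in HS3 and of -1.87 (standard error 0.25) in HS7, the comparisons it was chosen from. Among all genes tested, 20 of 13133 fell further in HS3 and 167 of 13164 in HS7. The change in HS1 was not used in choosing the gene, though its control libraries were. There *Cxcl3* rose by 0.50 on the log2 scale (edgeR adjusted p = 0.0012; its standard error was 0.11), higher in 2 of 2 libraries, in a comparison in which 6.38% of all genes were called higher and 735 of 13013 genes rose further. The call was lost when edgeR was fitted to the 10 libraries together (adjusted p = 0.0465) and without control replicate 1 (adjusted p = 0.0137), and the change stayed between 0.47 and 0.53 over all alternatives. In HS14 its change of 0.09 on the log2 scale was smaller than its standard error of 0.12 (edgeR adjusted p = 0.575), while 32.9% of all genes were called in either direction.

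HS14 and HS1 took no part in choosing *Cxcl3*, and between them it was lower in HS14 with -0.43 as its log2 difference (edgeR adjusted p = 0.00505; its standard error was 0.11). In this comparison 24.8% of all genes were called, 12.0% higher and 12.8% lower, and 1686 of 13015 genes fell further. The call did not hold in DESeq2 (adjusted p = 0.027), when edgeR was fitted to the 10 libraries together (adjusted p = 0.0747), or without HS1 replicate 1 (adjusted p = 0.0158), HS14 replicate 1 (0.0103) or HS14 replicate 2 (0.0308).

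**Figure D1:**
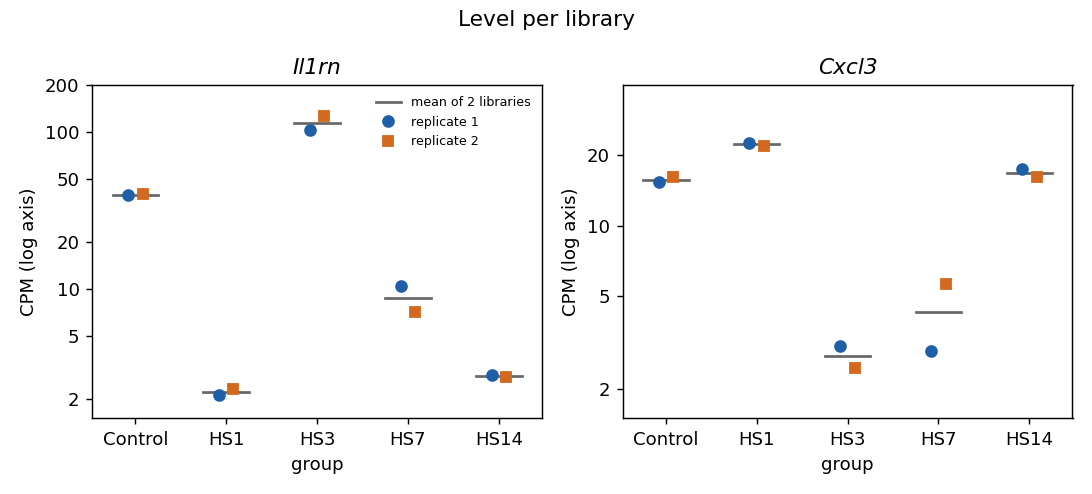
Level of *Il1rn* (left) and *Cxcl3* (right) in CPM on a log axis in each library of the 5 groups. Points are libraries and horizontal bars are means of the 2 libraries. *Il1rn* peaks in HS3 (103 and 127 CPM) and is lowest in HS1, while *Cxcl3* is highest in HS1 and lowest in HS3 and HS7.

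The ratio of *Il1rn* to *Cxcl3* counts was taken within each library, where the scaling of libraries cancels. Since the lengths of the counted exons were not used, only its change between libraries can be read. Control gave ratios of 2.58 and 2.50, HS1 of 0.0944 and 0.105 and HS3 of 33.7 and 51.7. In HS7 it was 3.57 and 1.27, and in HS14 0.163 and 0.170. HS1 and HS14 lay below Control and HS3 above it in both libraries, whereas the HS7 libraries lay on either side of the control libraries.

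**Figure D2:**
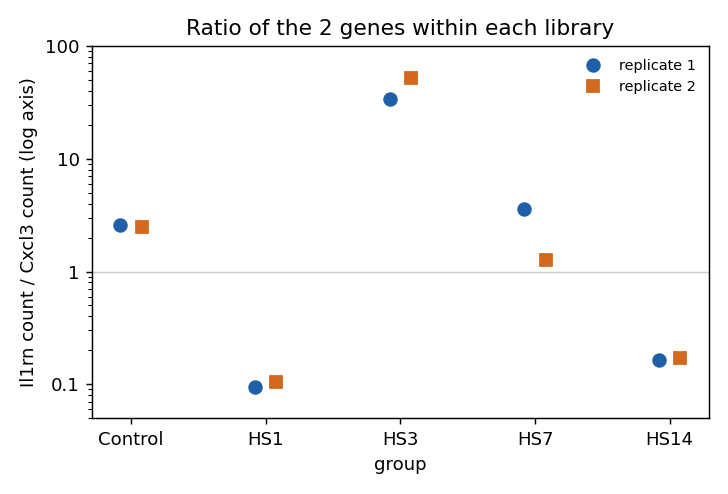
Ratio of *Il1rn* counts to *Cxcl3* counts within each library, on a log axis, for the 5 groups. Points are libraries and the grey line marks a ratio of 1. The ratio spans 0.0944 in an HS1 library to 51.7 in an HS3 library, and the HS7 libraries (3.57 and 1.27) lie either side of Control.

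The 2 libraries of HS7 differed for both genes, and in opposite directions. Replicate 1 was above replicate 2 by 0.53 on the log2 CPM scale for *Il1rn* and below it by a difference of -0.93 for *Cxcl3*. The median difference without its sign over 13691 genes was 0.13 in this group, and 12.2% of genes differed more than *Il1rn* and 4.97% more than *Cxcl3*. *Myog* was also higher in replicate 1 of HS7 (883 CPM) than in replicate 2 (670 CPM), and its part in these differences was not tested. In Control, HS1 and HS14 the replicates of either gene differed by at most 0.12 on the log2 CPM scale, and in HS3 by 0.31 for *Il1rn* and 0.30 for *Cxcl3*.

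Markers of fibro-adipogenic progenitors and fibroblasts, the cells that pre-plating should remove, also moved between the groups. Of the 8 listed markers, 7 had a symbol (*Pdgfra*, *Pdgfrb*, *Thy1*, *Col1a1*, *Dcn*, *Lum* and *Dpt*), and none was at 0 in a group mean. Their summed level lay between 7501 and 7975 CPM in Control, between 2458 and 2459 CPM in HS1, between 15830 and 19860 CPM in HS3, between 8398 and 8402 CPM in HS7 and between 2895 and 3091 CPM in HS14. *Col1a1* alone gave a mean of 6771 CPM of this sum in Control. The sum was lowest in HS1 and HS14 and highest in HS3, as *Il1rn* was, but in HS7 it stood above Control while *Il1rn* stood at 0.22 times the control mean. Symbols came only from genes the study had called at some time point, and all 7 markers had been called in HS1 against Control. *Il1rn* was chosen from that comparison too, so the low level of both in HS1 follows from the choice and is a description. *Pdgfra*, the receptor that marks these progenitors, had a mean of 148 CPM in Control. Its means were 30.9 CPM (HS1), 301 CPM (HS3), 62.5 CPM (HS7) and 58.1 CPM (HS14), so that it was below Control in HS7, as *Il1rn* was. The HS7 means of *Pdgfrb* (103.3 against 167.5 CPM) and *Thy1* (159.9 against 478.6 CPM) were also below Control. Those of *Col1a1* (7786 against 6771 CPM), *Lum* (13.0 against 6.93 CPM) and *Dpt* (5.04 against 3.50 CPM) were above it. The collagen-binding proteoglycan *Dcn* had another order, with means of 163 CPM (Control), 37.6 CPM (HS1), 77.6 CPM (HS3), 270 CPM (HS7) and 447 CPM (HS14). The part of these cells in the levels of *Il1rn* and *Cxcl3* was not tested.

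Markers of other cell types had a symbol less often. Symbols came only from genes the study had called at some time point. A high or low level in a group where the study had called a marker therefore follows from that choice. Of 13 leukocyte markers only *Lyz2*, the lysozyme of macrophages and granulocytes, had one. Its level was 1.26 and 1.14 CPM in Control, 1.39 and 1.39 CPM in HS1 and 4.47 and 7.31 CPM in HS3. It was 1.46 and 0.553 CPM in HS7 and 2.21 and 1.94 CPM in HS14. HS3 was thus above all other groups, and it is the comparison from which the study had called *Lyz2*. *Spn*, a leukocyte surface protein outside this list, is named below for its likeness to *Cxcl3*. It went the other way, with means of 13.8 CPM in HS3 and 97.5 CPM in HS1. The summed level of 4 of 6 endothelial markers ranged from 94.2 to 103 CPM in Control, from 34.1 to 34.4 CPM in HS1 and from 142 to 158 CPM in HS3. Its range was 51.2 to 64.3 CPM in HS7 and 57.5 to 59.2 CPM in HS14. Nearly all of this sum was *Eng* (a mean of 95.7 CPM in Control), a receptor subunit that stromal cells also carry. The cadherin *Cdh5*, which is specific to endothelium, had another order, with means of 0.194 CPM (Control), 0.125 CPM (HS1), 0.623 CPM (HS3), 2.61 CPM (HS7) and 4.79 CPM (HS14). *Vwf*, the von Willebrand factor, was likewise highest in HS14 (2.46 CPM) and lowest in HS1 (0.128 CPM).

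The 3 of 5 adipocyte markers with a symbol summed to a range of 15.8 to 17.2 CPM in Control, 7.66 to 9.11 CPM in HS1 and 27.0 to 28.7 CPM in HS3. The sum ranged from 4.03 to 4.90 CPM in HS7 and from 6.57 to 7.16 CPM in HS14, both below HS1. *Pparg*, the regulator of fat cell formation, made up most of the sum in Control (a mean of 11.8 CPM), while *Adipoq*, the adiponectin of mature fat cells, had means of 0.193 CPM in Control, 0.55 CPM in HS1 and 1.87 CPM in HS3. *S100b*, 1 of 4 Schwann cell markers, ranged from 13.3 to 15.2 CPM in Control, from 2.003 to 2.66 CPM in HS1 and from 33.3 to 34.6 CPM in HS3. It reached 6.12 CPM in HS7 and 4.76 CPM in HS14. The 2 of 5 epithelial markers with a symbol, *Krt7* and *Krt79*, summed to a range of 52.5 to 58.9 CPM in Control, 45.1 to 48.5 CPM in HS1, 41.7 to 52.9 CPM in HS3, and 4.22 to 6.82 CPM over the libraries of HS7 and HS14. The part of these cell types in the levels of both genes was not tested.

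The other genes of the interleukin 1 family and of the chemokines were taken from 6 lists by role, with 88 genes in all. A symbol was at hand for 17 of them, *Il1rn* and *Cxcl3* included. Symbols came only from genes that the study had called at some time point, so the counts over the other 15 are no independent evidence of a direction and cannot be read against the share of all genes called. A gene called by the study in a comparison is described there without a test, and its tests in other comparisons with Control share the control libraries.

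In HS1, 10 of the 15 had been chosen from that comparison, and of the other 5, 0 were higher and 3 lower at an adjusted p under 0.01 in edgeR (6.38% and 10.5% of all genes, 16.9% in either direction). The median log2 fold change of the 15 was -1.84 against 0.01 over all genes. In HS3, 5 of the 13 not chosen there were higher and 2 lower (7.00% and 4.51% of all genes, 11.5% in either direction), and the median of the 15 was 0.25. In HS7, 1 of the 11 not chosen there was higher and 4 lower (16.6% and 16.2% of all genes), with a median of -0.83 over the 15. In HS14, 2 of the 11 not chosen there were higher and 8 lower (15.8% and 17.0% of all genes), with a median of -0.86. Between HS14 and HS1, 7 of the 15 were higher and 2 lower in HS14 (12.0% and 12.8% of all genes), with a median of 0.83. Each gene so called had been chosen from HS1 or HS14 against Control. Its difference here ran the way that choice favours, so these counts are a description and not a test.

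Among the family ligands, *Il33*, an alarmin released from damaged stromal cells, was the only other gene with a symbol. It had 26.1 and 22.6 CPM in Control, 6.29 and 6.31 CPM in HS1, 52.0 and 52.0 CPM in HS3, 27.3 and 19.3 CPM in HS7, and 12.8 and 9.89 CPM in HS14. Its log2 fold change was -1.95 in HS1, the comparison it was chosen from. It fell in HS14 (-1.10, edgeR adjusted p = 1.34e-09) and rose in HS3 (1.09, edgeR adjusted p = 5.27e-06). In HS7, where *Il1rn* was at 0.22 times its control mean, *Il33* overlapped with Control (-0.06, edgeR adjusted p = 0.779).

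Both receptors with a symbol fell in HS1 and rose in HS3, and their levels in HS7 and HS14 were below those of Control. *Il1rl1*, the receptor of interleukin 33, had a mean of 802 CPM in Control, 347 CPM in HS1, 1296 CPM in HS3, 372 CPM in HS7 and 242 CPM in HS14. *Il1rl2*, the receptor of the interleukin 36 ligands, had 19.7, 11.8, 39.0, 5.04 and 4.76 CPM in the same order. The log2 fold change of *Il1rl1* was -1.21 in HS1 (edgeR adjusted p = 1.56e-14), 0.69 in HS3 (edgeR adjusted p = 3.09e-06) and -1.10 in HS7 (edgeR adjusted p = 0.000522), and it was -1.74 in HS14, from which it was chosen. That of *Il1rl2* was -0.74 in HS1 (edgeR adjusted p = 4.12e-05) and 0.98 in HS3 (edgeR adjusted p = 1.54e-05), and it was -1.96 in HS7 and -2.07 in HS14, from which it was chosen. *Casp1*, the protease that matures interleukin 1β, had a log2 fold change of -1.98 in HS1, from which it was chosen. It fell in HS14 (-1.13, edgeR adjusted p = 0.00417), and its changes in HS3 (0.73) and HS7 (-0.81) did not pass. *Casp1* was low throughout, with between 14 and 120 counts per library.

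*Cxcl6*, a chemokine gene near *Cxcl3* that also acts on neutrophils, was chosen from HS1 and HS7. It had 7.27 and 7.02 CPM in Control and 1.23 and 1.39 CPM in HS1 (log2 fold change -2.44), where *Cxcl3* was at its highest, and 1.30 and 0.829 CPM in HS7 (log2 fold change -2.74). It fell in HS3, with 3.15 and 2.07 CPM (-1.48, edgeR adjusted p = 0.00057), and in HS14, with 5.46 and 3.33 CPM (-0.69, edgeR adjusted p = 0.00494). *Cxcl14*, a chemokine outside the neutrophil-attracting group, had a log2 fold change of -1.96 in HS1, from which it was chosen, and rose in HS14 (1.04, edgeR adjusted p = 0.000357). *Ackr4*, a receptor that removes chemokines without signalling, fell in HS7 (-1.33, edgeR adjusted p = 6.20e-05) and rose in HS3 (1.02, edgeR adjusted p = 5.82e-05), and its log2 fold changes in HS1 (-1.78) and HS14 (-2.09) are those it was chosen from.

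Of the 21 listed genes that interleukin 1 induces, 8 had a symbol. *Il6*, *Mmp3*, *Ptx3*, *Has1* and *Has2* had been chosen from HS1, and of *Il11*, *Ptges* and *Mmp9*, *Ptges* was lower there (-1.34, edgeR adjusted p = 9.77e-09). The cytokine *Il6* had 12 and 4 counts in the HS1 libraries, a mean of 0.332 CPM against 1.82 CPM in Control, and rose to 3.83 CPM in HS14 (1.07, edgeR adjusted p = 0.0015). *Il11*, a related cytokine, rose in HS7 (1.36, edgeR adjusted p = 0.00593), and its log2 fold change was 2.18 in HS14, from which it was chosen. The hyaluronan synthase *Has2* had a log2 fold change of -2.04 in HS1. It fell in HS7 (-0.68, edgeR adjusted p = 5.50e-07) and HS14 (-1.49, edgeR adjusted p = 2.09e-21) and rose in HS3 (0.94, edgeR adjusted p = 1.43e-06), whereas *Has1* had 0 and 6 counts in the HS1 libraries. The pentraxin *Ptx3* had log2 fold changes of -1.57 in HS1 and 1.804 in HS3, both of which it was chosen from, and fell in HS14 (-1.21, edgeR adjusted p = 0.000555). The gelatinase *Mmp9* had a log2 fold change of -1.57 in HS3, from which it was chosen. It fell in HS7 (-1.32, edgeR adjusted p = 6.63e-05) and HS14 (-0.48, edgeR adjusted p = 0.00394), and its change in HS1 (-0.27, edgeR adjusted p = 0.148) did not pass. The matrix protease *Mmp3* fell in HS3 (-1.19, edgeR adjusted p = 0.00295) and HS14 (-0.79, edgeR adjusted p = 0.00461).

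**Figure D3:**
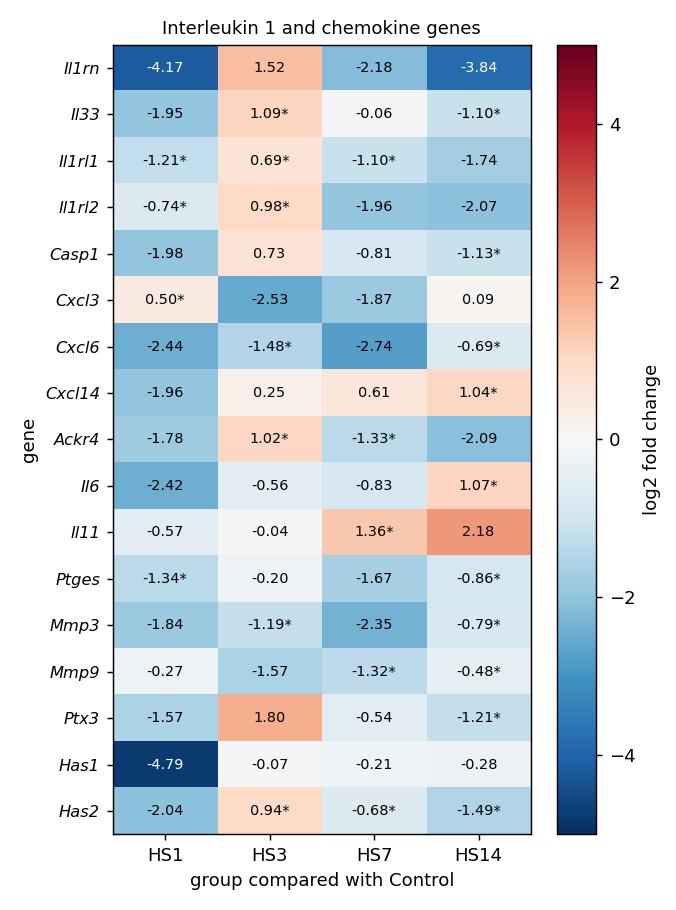
Log2 fold change against Control of *Il1rn*, *Cxcl3* and the 15 other listed genes with a symbol (rows) in HS1, HS3, HS7 and HS14 (columns), from edgeR fits of 2 libraries per group. Colour and number give the log2 fold change, and a star marks an adjusted p under 0.01, given only where the study had not called the gene in that comparison. Most values in HS1 are below 0 (median -1.84 over the 15 genes), while *Cxcl3* is at 0.50 there. The study had called 10 of the 15 in HS1, so this median follows largely from the choice of genes.

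Lists of cytokine-mediated signaling genes that were drawn by the study from genes called in these samples are not independent evidence of a direction. The 13 genes of the HS1 list other than *Il1rn* were all chosen from HS1, and of the 12 not chosen from HS3, 7 were higher and 1 lower there (7.00% and 4.51% of all genes). The 10 genes of the HS7 list other than *Il1rn* and *Cxcl3* were all chosen from HS7. Of these, 3 of the 6 not chosen from HS1 were lower there (10.5% of all genes), as were 4 of the 4 not chosen from HS14 in HS14 (17.0% of all genes). *F3*, tissue factor, is a gene of this list that did not pass in HS1, with a log2 fold change of 0.04 there (edgeR adjusted p = 0.764).

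The genes whose level followed that of *Il1rn* most closely were sought by Pearson correlation of log2 CPM over the 10 libraries, which describes these libraries and shares their group means. The 5 highest with a symbol were *Mfap5*, a protein of elastic microfibrils (r = 0.998), *Smad6*, an inhibitor of BMP signals (r = 0.994), *Adamts8*, a secreted metalloprotease (r = 0.993), *Loxl3*, an enzyme that crosslinks collagen (r = 0.990), and *Gpx3*, the extracellular glutathione peroxidase (r = 0.988). Only 9 genes without a symbol ranked above the last of these. *Mfap5* had means of 157 CPM (HS3), 59.5 CPM (Control), 22.9 CPM (HS7), 9.56 CPM (HS14) and 8.87 CPM (HS1), the same order of HS3, Control, HS7, HS14 and HS1 as *Il1rn* but over a narrower range.

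For *Cxcl3* the 5 highest were *Ccdc88b* (r = 0.976), *Slc25a48* (r = 0.963), *Spn* (r = 0.939), *Six2* (r = 0.933) and *Wnt10b* (r = 0.927), and 59 genes without a symbol ranked above the last. *Spn*, the leukocyte surface protein CD43, had 56.5 and 53.7 CPM in Control, 97.9 and 97.1 CPM in HS1, 12.6 and 15.02 CPM in HS3, 27.6 and 41.1 CPM in HS7, and 66.2 and 61.4 CPM in HS14. Like *Cxcl3*, *Spn* was higher in replicate 2 than in replicate 1 of HS7. Both libraries entered the correlation by which *Spn* was picked, so this is part of that likeness and no separate evidence. *Slc25a48* was at 0 in HS3 and HS7 and below 1 CPM elsewhere, so its likeness rests on few counts. *Six2*, a developmental transcription factor, and *Wnt10b*, a Wnt ligand, had means of 3.87 and 4.92 CPM in Control, and 6.36 and 7.99 CPM in HS1. Which genes were highest depended on the measure: with Spearman's rho 1 of the 5 genes for *Il1rn* and 3 of the 5 for *Cxcl3* were among the 5 highest with a symbol.

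**Figure D4:**
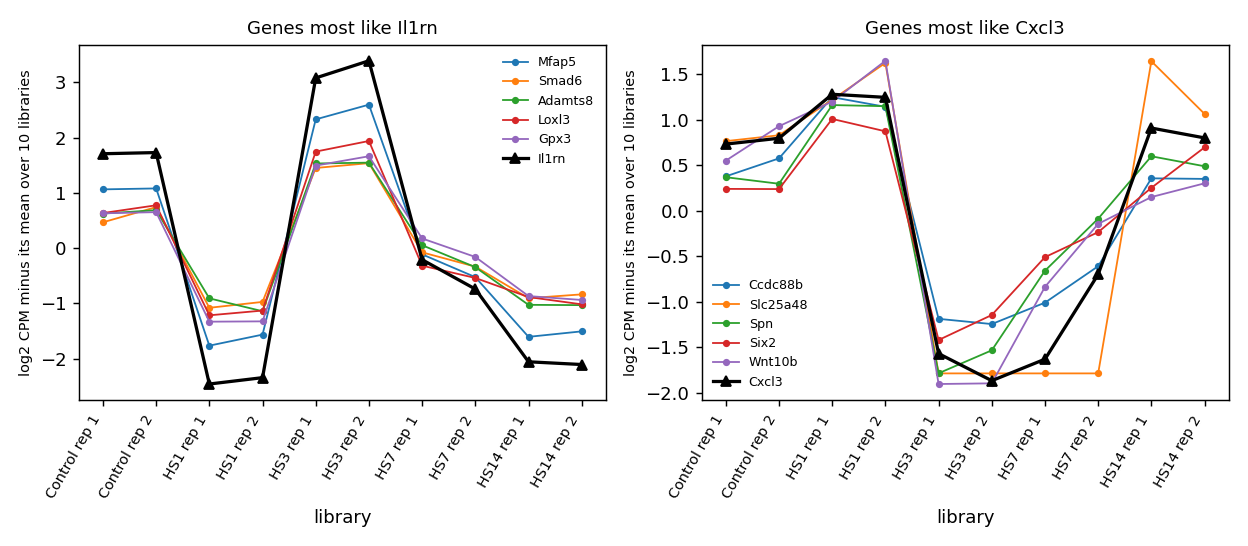
Log2 CPM in each library, minus the gene's mean over the 10 libraries, for *Il1rn* (left) and *Cxcl3* (right) in black and the 5 genes with a symbol most like each in colour. Lines only join the points of a gene. *Il1rn* and its 5 genes peak in HS3, and *Cxcl3* and its 5 genes are low in HS3 and HS7.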

How the data were processed

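RNA from cultured soleus-derived cells was sequenced as 10 libraries after stranded mRNA library preparation. The authors aligned the reads using STAR and deposited featureCounts output as raw counts, not normalized, for 32622 Ensembl genes. The submitters' processing notes name FastQC 0.11.9, STAR 2.7 and featureCounts 1.6.4. The study's methods name the genome mRatBN7.2 and the notes Rnor_6.0; no coordinates of either build are printed.

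Symbols came from the study's supplementary list of called genes (817 identifiers, 770 with a symbol), since the RefSeq table at hand pairs none with Ensembl identifiers. Each comparison was fitted on its 4 libraries in edgeR 4.0.16 (R 4.3.3, limma 3.58.1): genes kept by filterByExpr, TMM normalization, robust quasi-likelihood test, Benjamini-Hochberg adjustment over all genes tested, threshold 0.01. Standard errors are the fold change divided by the root of the F statistic. CPM used TMM factors from all 10 libraries, and log2 CPM a prior count of 2. Other settings tried were no expression filter, RLE scaling, DESeq2 1.42.0, a joint fit of 10 libraries, the replicate block and leaving out each library. The fits were tested on simulated data. Named were both genes, listed genes by role, and the 5 genes most like each. A gene the study listed as called in a comparison was not tested there. The 2 genes and all lists were chosen with earlier results of these data known. Promoter sequence is from RefSeq (GRCr8). The floors cover counting error only, while the standard errors also include the variation between libraries that the fit estimated.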

Additional observations from a re-analysis of the deposited data

Results flagged for a closer look

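Some pairs of time points moved in opposite directions against Control, with both libraries of one group above and both of the other below the control libraries. For *Il1rn*, HS3 was above Control, and the log2 fold change differed by 5.69 from that of HS1, by 3.70 from that of HS7 and by 5.37 from that of HS14. For *Cxcl3*, HS1 was above Control and differed by 3.03 from HS3 and by 2.37 from HS7. The HS14 libraries of *Cxcl3* were also above Control, by 0.09 only, and differed by 2.62 from HS3 and by 1.96 from HS7. These differences share the control libraries and were not tested. Groups of 2 libraries were not tested for outlying libraries.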

How the results depend on the processing

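The log2 fold changes of *Il1rn* and of *Cxcl3* kept their direction under each of 45 alternatives. Those of *Cxcl3* counted as unchanged under 38 of 45. In HS1 and HS14 against Control and between HS14 and HS1, unchanged meant the same side of the threshold. In HS3 and HS7, where *Cxcl3* was not tested, it meant a value within the spread of the replicates. Leaving out a library of a group of 2 moves the group mean by less than that spread. Such fits in HS3 and HS7 could therefore hardly count as changed, and their part in the 38 shows no stability. The rise of *Cxcl3* in HS1 (0.50) was 0.5005 with edgeR fitted to the 10 libraries together and no longer passed (adjusted p = 0.0465). With each library left out it lay between 0.4665 and 0.5313, and the lower value, without Control replicate 1, did not pass. The difference of *Cxcl3* between HS14 and HS1 (-0.43) did not pass in DESeq2 (-0.4278) or with the 10 libraries together (-0.4082), and lay between -0.4885 and -0.3763 with each library left out. Of all genes, 1511 were called in HS3, and between 1008 and 3166 with each library left out (2598 without HS3 replicate 1, 3166 without HS3 replicate 2, 1008 without Control replicate 2). In HS7 4326 were called, and between 2055 and 5096 with each library left out (2410 without Control replicate 1, 2055 without Control replicate 2). Of the 15 listed genes, those chosen from the comparison included, 14 were called in HS14, 8 in DESeq2 and between 9 and 12 with each library left out. The study had chosen 4 of these 15 from HS14 against Control, and of the other 11, 2 were higher and 8 lower. Symbols came only from genes the study had called at some time point. The count of 14 is therefore a description and cannot be read against the 32.9% of all genes called in HS14. Where a single library remained in a group, it was assumed to vary like the others. The cause of these changes was not tested.

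Same-numbered libraries did not deviate together (correlations between -0.0165 and 0.0417), so the numbers were not taken to pair the libraries. With the replicate block, 2290 genes were called in HS3, and *Cxcl3* had a log2 fold change of 0.50 in HS1 (edgeR adjusted p = 0.00737) and of -0.43 between HS14 and HS1 (edgeR adjusted p = 0.000566). The 5 genes most like each gene changed with the measure: Spearman's rho shared 1 of 5 for *Il1rn* and 3 of 5 for *Cxcl3*, and a minimum mean log2 CPM of 3 shared 5 and 2.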
